A study of Mus musculus with 8 samples.

Results

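The genes described here encode proteins that license DNA for replication, 1 inhibitor of that step (geminin), and factors that activate the loaded helicase afterwards. Together they are called licensing genes here. They were taken from the deposited sheet by their symbols: Mcm or Orc followed by a digit, Gins, and Cdc6, Cdt1, Cdc45 and Gmnn. Of 24 protein-coding genes that these letters take in from the mouse annotation, 16 stood in the sheet, which lists 1994 genes in all. The sheet holds only genes that the submitters found to differ between the genotypes, and for genes outside it no level can be given. Outside it were Orc2, Orc3, Orc4, Orc5, Gins4, Mcm8, Mcm9 and Mcm3ap. The letters also take in genes that are not licensing factors, such as Mcm3ap.

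RNA came from the flushed cortical bone of the femoral shaft of mice aged 16 weeks, in 4 Control and 4 FGFR1-CKO libraries. Control mice carry loxP-flanked Fgfr1 (Fgfr1f/f) and no Cre. FGFR1-CKO mice carry the same alleles with DMP1-CreER, a tamoxifen-activated Cre under a Dmp1 promoter that is active in late osteoblasts and osteocytes, so effects of Cre and of Fgfr1 loss cannot be told apart. Tamoxifen was given to both groups in the chow (400 mg/kg) for 4 weeks, starting at 12 weeks. The submitters chose the libraries by Fgfr1 level from 6 Control and 7 FGFR1-CKO samples sequenced, and all p-values are conditional on that choice. Fgfr1, the targeted receptor gene, measured 506 to 677 CPM (reads scaled to the library total) in Control and 275 to 346 CPM in FGFR1-CKO (log2 fold change -0.90, limma adjusted p = 1.87e-05). Because the libraries were chosen by Fgfr1 level, this difference and its p-value are not independent of the choice. Libraries held between 9642436 and 11094287 reads, as recovered from the values. Control replicate 4 stood apart in osteoclast markers and FGFR1-CKO replicate 3 in osteoblast markers, and fold changes without both are given with the results. Osteocyte and osteoblast markers of the labelled tissue were present in all 8 libraries, with Dmp1 at 576 to 1030 CPM and Ibsp (bone sialoprotein) at 633 to 1048 CPM across them.

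Licensing is the step that allows each origin of replication to fire once in a cell cycle. In G1 the origin recognition complex, with Cdc6 and Cdt1, loads the ring-shaped MCM helicase onto DNA in an inactive form, and geminin (Gmnn) binds Cdt1 later in the cycle to prevent a repeat. At the start of S phase Mcm10, Cdc45 and the GINS complex turn the loaded ring into a moving helicase. These genes are expressed in dividing cells, are shut down in cells that leave the cycle, and are classic targets of E2F transcription factors.

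Promoter sequences were compared because licensing genes are textbook E2F targets. RefSeq promoter windows of build GRCm38.p6, from 250 bases before the start site to 50 after it, were matched for 12 of the 16 genes, Mcm7 with 2 start sites. Gins1, Gins2, Gmnn and Mcm4 had no entry. Shown here, 5′ to 3′ on the strand of the gene, are the bases before the start site of Cdc6, whose level rose most, of Mcm5 and Mcm6, which hold overlapping matches, and of Mcm2, which holds none. Capitals mark matches to the E2F letters TTTCCCGC, TTTCGCGC, TTTGCCGC or TTTGGCGC on either strand. The Cdc6 stretch begins after an exon of another annotated Cdc6 transcript and has 169 bases, and the others have 250. The GENCODE annotation starts Cdc6 at 98907801, so the whole stretch lies downstream of that start. Both Mcm7 windows likewise lie inside the gene as annotated there, which starts at 138172422 on the minus strand.
Cdc6, chr11:98907982-98908150, plus strand, 1 match: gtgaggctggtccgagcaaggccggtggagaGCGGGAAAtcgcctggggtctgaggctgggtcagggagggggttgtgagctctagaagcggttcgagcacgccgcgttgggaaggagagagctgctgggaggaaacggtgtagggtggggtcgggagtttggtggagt
Mcm5, chr8:75109259-75109508, plus strand, 2 overlapping matches: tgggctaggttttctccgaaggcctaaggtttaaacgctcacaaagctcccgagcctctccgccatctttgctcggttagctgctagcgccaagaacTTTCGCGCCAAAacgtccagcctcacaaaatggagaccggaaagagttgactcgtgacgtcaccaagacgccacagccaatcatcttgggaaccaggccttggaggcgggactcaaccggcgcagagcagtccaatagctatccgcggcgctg
Mcm6, chr1:128359706-128359955, minus strand, 3 matches, 2 of them overlapping: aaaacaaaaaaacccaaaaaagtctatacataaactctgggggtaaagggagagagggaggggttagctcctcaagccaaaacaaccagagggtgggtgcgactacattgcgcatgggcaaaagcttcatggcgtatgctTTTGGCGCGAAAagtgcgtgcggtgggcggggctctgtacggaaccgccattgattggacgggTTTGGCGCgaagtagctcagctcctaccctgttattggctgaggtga
Mcm2, chr6:88898781-88899030, minus strand, no match: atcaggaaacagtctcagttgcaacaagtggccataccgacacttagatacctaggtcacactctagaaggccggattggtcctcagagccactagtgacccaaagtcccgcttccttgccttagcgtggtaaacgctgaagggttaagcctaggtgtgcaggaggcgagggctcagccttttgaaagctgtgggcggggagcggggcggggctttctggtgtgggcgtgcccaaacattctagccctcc

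An E2F match lay in the window of 8 of the 12 genes, namely Orc1, Cdc6, Cdt1, Mcm3, Mcm5, Mcm6, Mcm7 and Gins3. Counted by window this was 8 of 13, or 61.5%, against 744 of all 32851 promoters in the table (2.26%) and 51 of 633 windows of listed genes that rose (8.06%). In Mcm5 the matches on opposite strands began at positions -153 and -149 from the start site and shared letters. Mcm6 had the same arrangement at -110 and -106 and a further match at -47, whereas the Cdc6 match began at -138. The match of Cdt1 began at position 33 after the start site, and both matches of Mcm3 lay after the start site too.

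Mcm2, Mcm10, Orc6 and Cdc45 had no E2F match in their windows, which says only that these letters were not there. The letters CCAAT, a box common in promoters of cell cycle genes, were found on either strand in the windows of 10 of the 12 genes, all but Cdc6 and Cdt1. By window the share was 84.6%, against 37.4% of all promoters and 52.4% of windows of listed genes that rose. The letters TTTGAA, known as the cell cycle homology region, were found in Mcm2, Cdc45 and Gins3, or 23.1% of windows, against 17.9% of all promoters and 23.9% of windows of listed genes that rose. Cdc6 (log2 fold change 1.04) and Gins3 (0.55), the members with the largest and the smallest change, both held an E2F match.

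**Figure D1:**
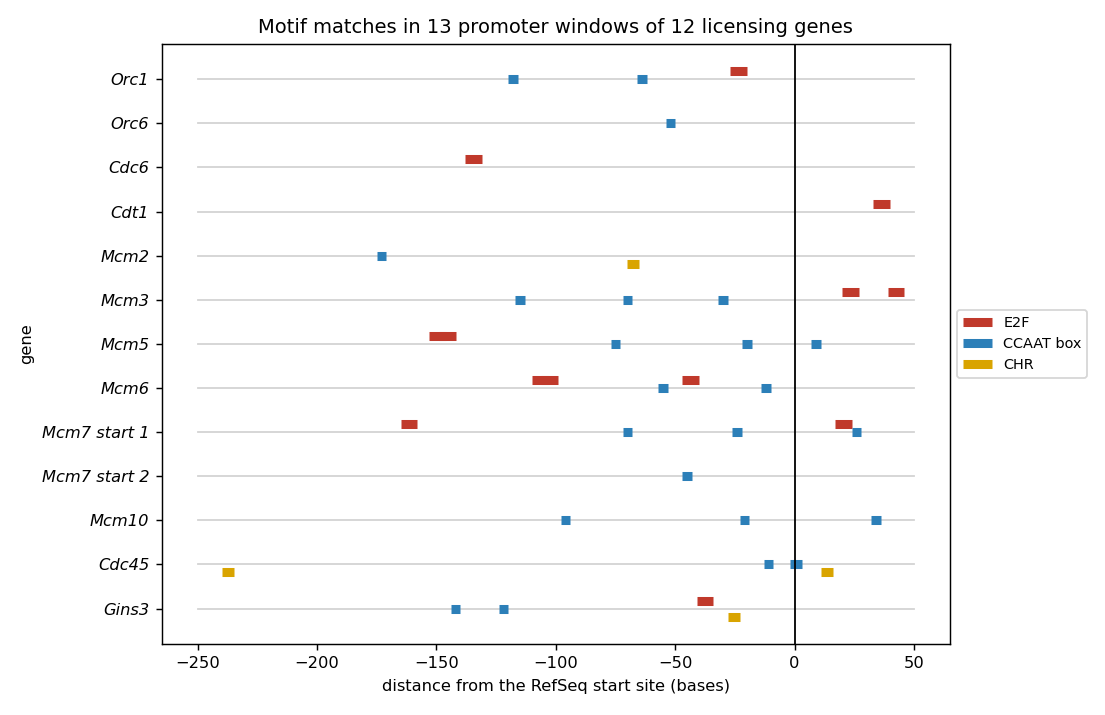
Motif matches in 13 promoter windows of 12 licensing genes. The x axis is the distance from the RefSeq start site in bases, each grey line is a window from 250 bases before to 50 after it, and bars mark matches to the E2F letters (red), CCAAT (blue) and TTTGAA (yellow). Red bars appear in 8 genes and lie on both sides of the start site.

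All 16 listed licensing genes were higher in FGFR1-CKO bone. Each rose past the threshold of an adjusted p under 0.05 with a log2 fold change of at least 0.5, as did 36.6% of all 1994 listed genes. In each of the 16 every FGFR1-CKO library lay above every Control library, as in 35.6% of all listed genes. The median log2 fold change of the 16 was 0.77 (range 0.55 to 1.04), beside -0.43 over all listed genes and 0.72 over the 729 listed genes that rose. Summed over the 16 genes, levels were 642 to 762 CPM in Control and 1168 to 1278 CPM in FGFR1-CKO. The genes were listed because they differed between these same libraries, so their count and direction follow from the listing and lend support to nothing. The limma adjusted p-values ran from 5.60e-06 for Cdc6 to 1.93e-04 for Gins3. The fit used only genes selected for differing between these same libraries, so small p-values follow from the listing too.

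Of the origin recognition complex, the platform on which the helicase is loaded, Orc1 and Orc6 were listed. Orc1 encodes the largest subunit, an ATPase whose amount varies over the cell cycle. It measured 9.20, 10.0, 7.37 and 8.39 CPM in Control replicates 1 to 4 and 15.8, 14.3, 13.7 and 19.4 CPM in FGFR1-CKO replicates 1 to 4. FGFR1-CKO replicate 4 was the highest, and the groups did not overlap. The log2 fold change was 0.78 (standard error 0.13, the widest of the 16). Orc6, the smallest subunit, rose from 12.5 ± 0.45 to 21.1 ± 0.95 CPM (mean ± SD over 4 libraries), with Control between 12.1 and 13.1 CPM and FGFR1-CKO between 19.7 and 21.8 CPM. Its log2 fold change was 0.71 (standard error 0.077).

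The loaders Cdc6 and Cdt1 rose together with geminin, the inhibitor of Cdt1. Cdc6, the ATPase that joins the origin complex to recruit the helicase, measured 22.8, 23.0, 23.4 and 26.5 CPM in Control replicates 1 to 4 and 51.6, 53.9, 46.3 and 49.7 CPM in FGFR1-CKO replicates 1 to 4. The mean was 2.11 times as high in FGFR1-CKO, the groups did not overlap, and Control replicate 4 lay above the other Controls. The log2 fold change was 1.04 (95% confidence interval 0.87 to 1.22, limma adjusted p = 5.60e-06), and Cdc6 ranked 15 of all 1994 listed genes by adjusted p. Without both libraries that stood apart the log2 fold change was 1.13.

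Cdt1, which carries the helicase to the origin, measured 41.1, 42.6, 36.1 and 48.4 CPM in Control and 75.2, 70.1, 71.3 and 65.9 CPM in FGFR1-CKO, in replicate order. The groups lay apart, and within Control replicate 3 was the lowest and replicate 4 the highest. Its log2 fold change was 0.74 (standard error 0.091). Gmnn measured 10.2, 10.6, 8.29 and 10.7 CPM in Control and 20.4, 17.5, 19.8 and 18.2 CPM in FGFR1-CKO. Control replicate 3 was the lowest for both genes, and the log2 fold change of Gmnn was 0.87 (standard error 0.10).

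Because geminin blocks Cdt1, the ratio of their RNA within a library was compared. The block acts between proteins, which were not measured. Log2(CPM + 1) of Cdt1 minus that of Gmnn was 1.91, 1.91, 2.00 and 2.08 in Control and 1.83, 1.94, 1.80 and 1.80 in FGFR1-CKO. The groups overlapped, since FGFR1-CKO replicate 2 lay above 2 Control libraries. The means were 1.97 ± 0.08 in Control and 1.84 ± 0.07 in FGFR1-CKO (SD, n = 4 per group). The difference of -0.13 gave p = 0.0857 in an exact two-sided permutation test, where 70 assignments of 4 against 4 allow no less than 0.0286. Without FGFR1-CKO replicate 2 the difference was -0.16 with an exact permutation p of 0.0286. Leaving out any other single library gave exact permutation p-values of 0.0857 to 0.171. Only that omission, singled out after the values were seen, brought p under 0.05.

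The 6 subunits of the MCM2 to MCM7 helicase ring all rose, with log2 fold changes of 0.66 to 0.88. Mcm5 measured 102, 93.1, 90.8 and 103 CPM in Control replicates 1 to 4 and 191, 179, 168 and 179 CPM in FGFR1-CKO replicates 1 to 4. The lowest FGFR1-CKO library stood far above the highest Control library. Its log2 fold change of 0.88 (95% confidence interval 0.72 to 1.03, limma adjusted p = 6.62e-06) was the largest of the 6, and it ranked 32 of all listed genes by adjusted p.

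Mcm6 measured 95.7, 105, 93.9 and 118 CPM in Control and 188, 186, 187 and 167 CPM in FGFR1-CKO, with FGFR1-CKO replicate 4 below the other 3 of its group. Its log2 fold change was 0.82 (standard error 0.085). Mcm4 measured 65.0, 63.3, 64.6 and 73.1 CPM in Control and 109, 110, 101 and 100.5 CPM in FGFR1-CKO. Its groups did not overlap, and its log2 fold change of 0.66 (95% confidence interval 0.50 to 0.82) was the smallest of the 6.

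Mcm2, Mcm3 and Mcm7 completed the ring, with 68.9 to 108 CPM over their Control libraries and 118 to 178 CPM over their FGFR1-CKO libraries. Their log2 fold changes were 0.83, 0.84 and 0.77. Summed over the 6 subunits the ring measured 494 to 587 CPM in Control and 884 to 975 CPM in FGFR1-CKO. Between 657 and 1946 reads lay behind each value of a ring subunit.

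The ring holds 1 copy of each subunit, so each subunit's share of the summed CPM was compared between groups. These are shares of RNA, and protein was not measured. Mcm4 made up 12.0% to 13.1% of the sum in Control and 10.97% to 11.7% in FGFR1-CKO, without overlap. The difference of -1.21 percentage points gave p = 0.0286 in an exact two-sided permutation test, the smallest possible, and 0.171 after Benjamini-Hochberg adjustment over the 6 shares, so it did not pass. Mcm4 was singled out after the shares had been seen. The other 5 shares overlapped between the groups, with exact permutation p-values of 0.171 to 0.800 before adjustment, and Mcm6 had the most similar means at 19.4% and 19.5%.

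Of the factors that convert the loaded ring into an active helicase, 5 were listed and rose, with a median log2 fold change of 0.70. Cdc45, which with GINS and the MCM ring forms the replicative helicase, rose from 24.8 ± 1.54 to 41.2 ± 2.02 CPM (mean ± SD over 4 libraries), which is a log2 fold change of 0.71. Mcm10, which binds the ring during activation and is no ring subunit despite its name, rose from 22.5 ± 3.01 to 35.8 ± 3.30 CPM, a log2 fold change of 0.65. In Control, replicate 1 was the highest for both genes.

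The GINS complex has 4 subunits, of which Gins1, Gins2 and Gins3 were listed, with 55 to 137 reads behind each value. Gins2 rose from 7.11 ± 0.60 to 13.2 ± 0.93 CPM (mean ± SD over 4 libraries), which is a log2 fold change of 0.81, and Gins1 from 5.79 ± 0.77 to 9.99 ± 0.83 CPM, a log2 fold change of 0.70. Gins3 measured 5.74, 6.04, 6.63 and 5.91 CPM in Control and 9.13, 9.61, 9.61 and 9.10 CPM in FGFR1-CKO. Its groups did not overlap, but its log2 fold change of 0.55 (95% confidence interval 0.35 to 0.75) was the smallest of the 16. After rescaling by the authors' size factors it was 0.45 and Gins3 no longer passed the threshold, leaving 15 of 16 that rose, beside 32.6% of all listed genes.

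**Figure D2:**
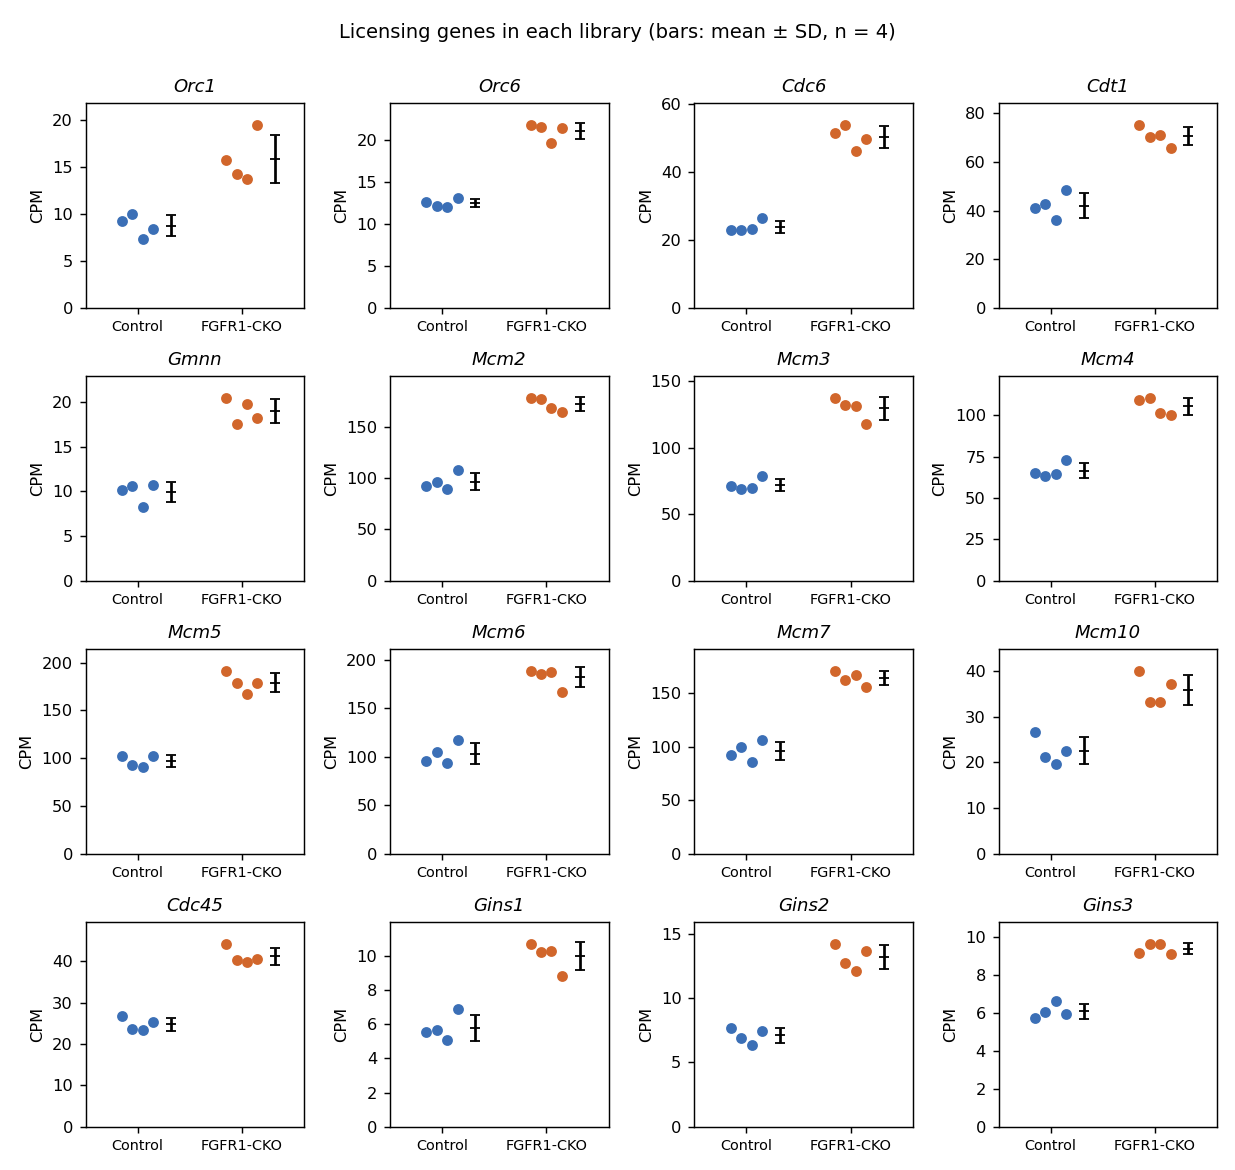
Level of each licensing gene in every library. The y axis of each panel is CPM on a linear scale from 0, points are single libraries of Control (blue) and FGFR1-CKO (orange) in replicate order, and bars give mean ± SD over 4 libraries. The groups do not overlap in any of the 16 panels.

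The sizes of the changes lay close together. In the limma fit the 95% confidence interval of Cdc6 (0.87 to 1.22) lay above those of Mcm4 (0.50 to 0.82) and Gins3 (0.35 to 0.75). All other pairs of intervals overlapped. Differences between members were not tested. The authors' deposited table gives log2 fold changes of 0.51 for Gins3 to 0.96 for Cdc6. Its standard errors for them are 0.17 and 0.091, against 0.092 and 0.079 in the limma fit. The separation of Cdc6 from Gins3 is therefore given for the limma intervals only. Size-factor scaling shifted the log2 fold changes of all listed genes by a median of -0.11, and those of the 16 members by -0.11. Without both libraries that stood apart the 16 members still rose, by log2 fold changes of 0.53 to 1.13.

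**Figure D3:**
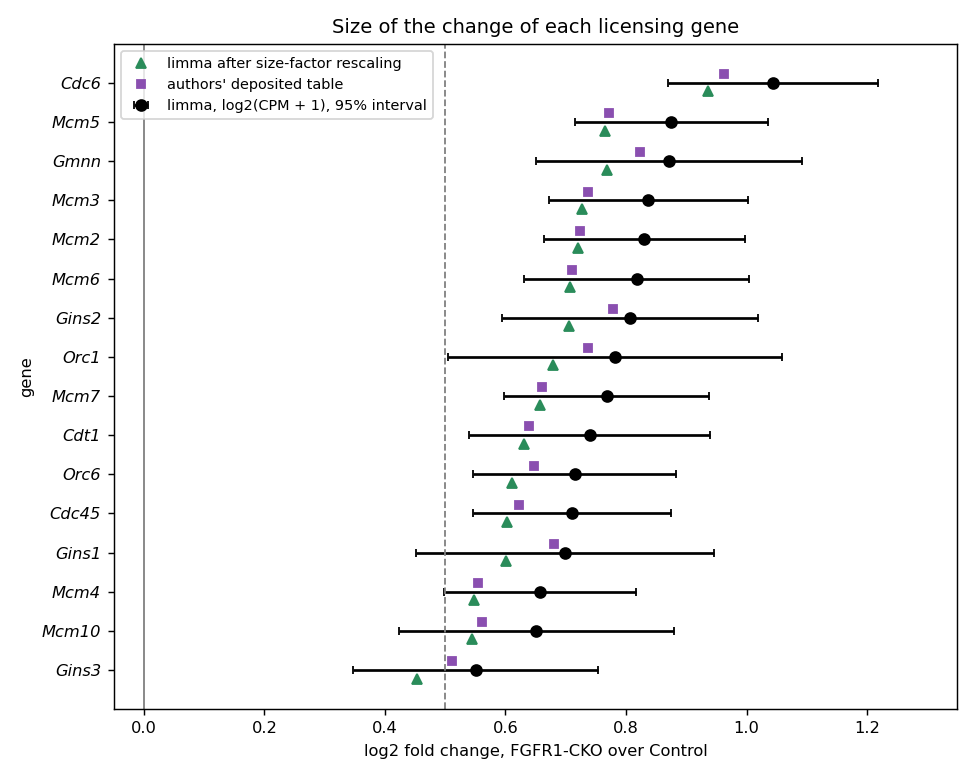
Log2 fold change, FGFR1-CKO over Control, of each licensing gene, sorted by size. Black points with bars are limma estimates on log2(CPM + 1) with 95% confidence intervals, green triangles the same after size-factor rescaling, purple squares the authors' deposited values, and the dashed line the threshold of 0.5, which of all the plotted symbols only the green triangle of Gins3 misses.

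Levels of different genes were compared per kilobase of annotated exon. In Control the ring subunits led, from 24.4 ± 1.56 CPM per kb for Mcm5 to 13.9 ± 1.22 for Mcm2, followed by Cdt1 at 13.4 ± 1.62 (SD, n = 4 each). Cdc45 (7.07), Gmnn (6.79), Orc6 (5.05), Cdc6 (4.58), Gins1 (3.82), Mcm10 (2.93), Orc1 (2.51), Gins3 (2.24) and Gins2 (1.74) came next, all in mean CPM per kb. Neighbours in this order whose library ranges did not overlap were Mcm4 and Mcm2, Cdt1 and Cdc45, Gmnn and Orc6, and Gins3 and Gins2. The order of the other neighbours was within their spread.

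In FGFR1-CKO the same order held except that Gmnn (12.96 CPM per kb) stood above Cdc45 (11.7) and Cdc6 (9.64) above Orc6 (8.55). With the length of the principal transcript in place of all exons, Mcm6 (35.4 CPM per kb), Mcm7 (32.5), Mcm5 (28.8) and Mcm2 (28.6) led in Control and Mcm4 (18.5) fell below Cdt1 (19.2). Gmnn (8.83) then stood below Orc6 (9.69) and Cdc6 (9.35), so the order within the ring and that of these 3 genes depend on the length used. Some exon bases are shared with other genes, and whether counting used strand is not given in the sources used here. Gins2 shares 67.3% of its exon length with Gse1 on the opposite strand, Orc1 10.8% with Gm12743, and Orc6, Mcm7 and Cdc45 between 5.96% and 7.25% with the neighbours Vps35, Ap4m1 and Ufd1.

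The 16 genes lie on chromosomes 1, 2, 4, 5, 6, 8, 11, 13 and 16 of mm10. Mcm5 (ENSMUSG00000005410) spans 75109569 to 75128439 of chromosome 8 and Cdc6 (ENSMUSG00000017499) 98907801 to 98923940 of chromosome 11. For 6 members, a protein-coding gene on the opposite strand starts within 1000 bases and reads the other way. These neighbours are Prpf38a for Orc1, Vps35 for Orc6, Prkdc for Mcm4, Ap4m1 for Mcm7, Ufd1 for Cdc45 and Abhd12 for Gins1. None of the 6 neighbours was listed (0 of 6). Of all 27025 genes with a RefSeq promoter window only 1413 were listed, so this count says nothing particular about the neighbours.

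Within the groups the members tended to move together from library to library. Control replicate 4 lay above its group mean for 14 of 16 members and Control replicate 3 for 1 of 16, Gins3. FGFR1-CKO replicate 1 lay above its group mean for 15 of 16. As a description over 8 libraries, the deviation of Cdt1 from its group means correlated with the mean deviation of the other 15 members at a Pearson r of 0.91, that of Mcm2 at 0.84 and that of Mcm5 at 0.82. Mcm10 (0.46), Orc1 (0.054) and Gins3 (-0.75) had the lowest values. Few reads lay behind Gins3 (58 to 100 per library) and Orc1 (80 to 188). Gins1, with 55 to 107 reads, stood at 0.79. Deviations of genes in 1 library share its depth and its makeup of cells, and no test was made of them.

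Among listed genes outside the members, those with deviations most like the members' mean were Cdc20 (Pearson r 0.99), Ccsap (0.99), Ercc6l (0.99), Ticrr (0.98) and Svip (0.98), each over 8 libraries. All 5 rose, with log2 fold changes of 0.67 to 0.78. They were picked as the highest of all listed genes outside the members, and no test was made of them.

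**Figure D4:**
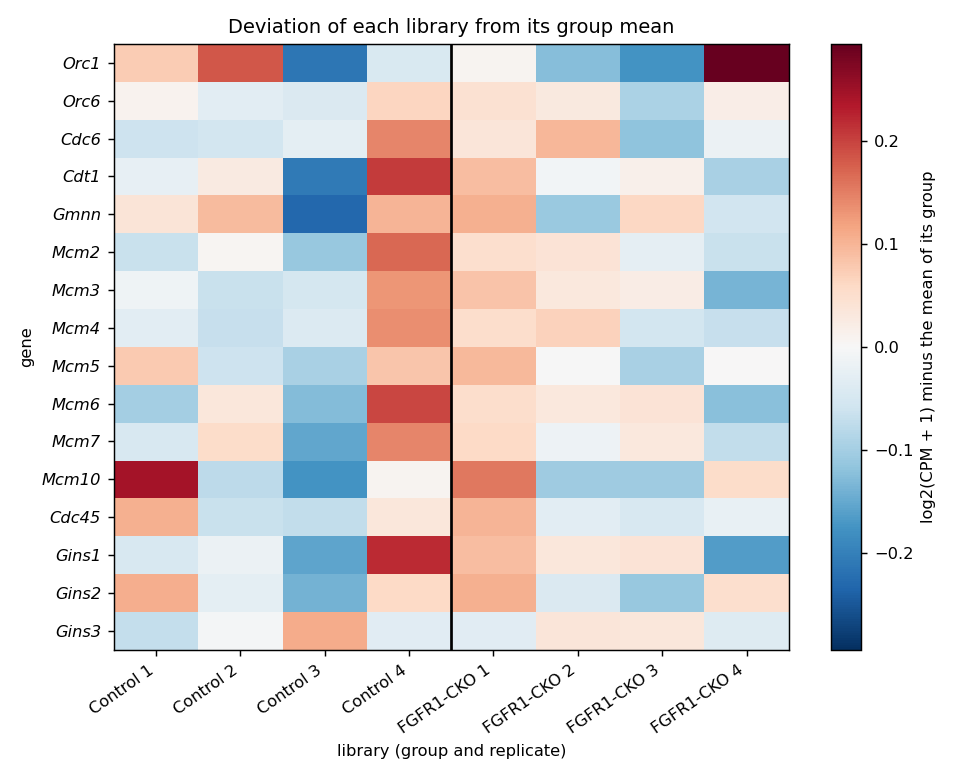
Deviation of each library from its group mean for the 16 licensing genes. Colour is log2(CPM + 1) minus the mean of the library's own group (red above, blue below), rows are genes and columns are libraries. The column of Control replicate 4 is red for 14 genes, that of Control replicate 3 is blue for 15, and Gins3 has the other sign in both.

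Other genes of the same process were counted over lists of their own, again among listed genes only, so their counts describe the sheet, where 36.6% of all listed genes rose. Of 23 genes that control licensing 11 were listed and 11 rose (median log2 fold change 0.77). They included E2f2, an E2F transcription factor (1.05), Ccne1 and Ccna2, the cyclins of S phase entry and S phase (1.07 and 0.95), and Fbxo5, an inhibitor of the ligase that destroys geminin (0.75). Of 16 genes of origin firing and fork protection 11 were listed and 11 rose (median 0.71), among them Cdc7, the kinase that phosphorylates the loaded ring (0.79), Clspn (0.89), Wdhd1 (0.72) and Timeless (0.68). Of 27 elongation genes 12 were listed and 12 rose (median 0.68), such as the sliding clamp Pcna (0.68), the ligase Lig1 (0.78), the single-strand binding subunit Rpa1 (0.69) and the topoisomerase Top2a (0.74).

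Enzymes that make deoxynucleotides were listed in 7 of 10 cases and 7 rose (median 0.76), with both ribonucleotide reductase subunits Rrm1 (0.81) and Rrm2 (0.89) and the kinases Dck (0.91) and Tk1 (0.76). All 16 mitosis genes were listed and rose (median 0.74), for example Birc5 (0.81), Ccnb2 (0.80), Nusap1 (0.79) and Bub1b (0.72). To set the helicase against a gene of the whole dividing cell, log2(CPM + 1) of Mcm5 minus that of Mki67, the proliferation antigen Ki-67, was taken in each library. It was -2.84, -3.16, -3.06 and -3.01 in Control and -2.82, -3.01, -2.90 and -3.09 in FGFR1-CKO. The groups overlapped, and the difference of 0.063 was within the spread of the libraries (SD 0.13 and 0.12, n = 4 per group; exact two-sided permutation p = 0.543). Leaving out single libraries moved it to 0.016 (Control replicate 2), 0.018 (FGFR1-CKO replicate 1), 0.11 (FGFR1-CKO replicate 4) and 0.12 (Control replicate 1).

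The listed erythroid, neutrophil and B cell precursor markers also rose between the groups, beside the 36.6% of all listed genes that rose. The 2 listed monocyte and macrophage markers were lower in FGFR1-CKO, as given below. Of 21 erythroid markers 19 were listed and 19 rose (median log2 fold change 1.04). Their summed level was 2233 to 3068 CPM in Control and 5144 to 5975 CPM in FGFR1-CKO. Alas2, which starts haem synthesis in red cells, had 179 to 263 CPM in Control and 520 to 610 CPM in FGFR1-CKO, and Klf1, an erythroid transcription factor, 31.2 to 42.0 and 79.1 to 89.9 CPM. Of 19 neutrophil markers 8 were listed and 8 rose (median 0.66), with sums of 8683 to 10763 and 14296 to 16737 CPM. Of 15 B cell precursor markers 5 were listed and 5 rose (median 0.79), with sums of 43.3 to 74.8 and 96.1 to 136 CPM, among them Igll1 (1.09) and Pax5 (0.73).

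Markers of bone and endothelial cells moved the other way, as did 38.4% of all listed genes, which fell past the same threshold. That share is 766 of 1994 genes, against 1154 after size-factor rescaling, and the submitters give 1265 listed genes as lower. The calls below are without rescaling. Of 16 osteoblast markers 16 were listed and 15 fell (median -0.80), of 12 osteocyte markers 9 were listed and 8 fell (median -0.74), of 10 osteoclast markers 7 were listed and 7 fell (median -0.98), and of 11 endothelial markers 7 were listed and 4 fell (median -0.52). Osteoblast sums were 136651 to 189681 CPM in Control and 75516 to 121590 CPM in FGFR1-CKO. Osteocyte sums were 2757 to 3263 and 1748 to 1905 CPM, osteoclast sums 1582 to 3476 and 856 to 1339 CPM, and endothelial sums 478 to 601 and 340.0 to 385 CPM. Of 11 monocyte and macrophage markers 2 were listed, with log2 fold changes of -0.43 (Csf1r) and -0.39 (Cd68) that did not pass and sums of 384 to 571 and 288 to 372 CPM. No megakaryocyte marker (0 of 8) and no T and NK cell marker (0 of 9) was listed. Of the listed markers in all these lists, none was at 0 in any library.

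The part of these cell types in the rise of the licensing genes was not tested. In bulk tissue, more dividing cells and more RNA of these genes per cell cannot be told apart. CPM are scaled to the library total, so fewer reads from other cells cannot be told apart from these either. Within the Control group the mean log2(CPM + 1) of the 16 genes was 4.83, 4.82, 4.71 and 4.92 in replicates 1 to 4, and the erythroid mean was 6.10, 6.52, 6.45 and 6.41. In FGFR1-CKO the licensing means were 5.66, 5.59, 5.56 and 5.57, and the erythroid means 7.26, 7.46, 7.38 and 7.40. The neutrophil means were 9.16, 8.84, 8.996 and 9.001 in Control and 9.79, 9.68, 9.58 and 9.67 in FGFR1-CKO, and the B cell precursor means 2.94, 3.36, 3.51 and 3.61 in Control and 4.09, 4.47, 4.28 and 3.96 in FGFR1-CKO. The licensing mean of FGFR1-CKO replicate 1 was the highest of its group, as was its neutrophil mean, while its erythroid mean was the lowest.

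**Figure D5:**
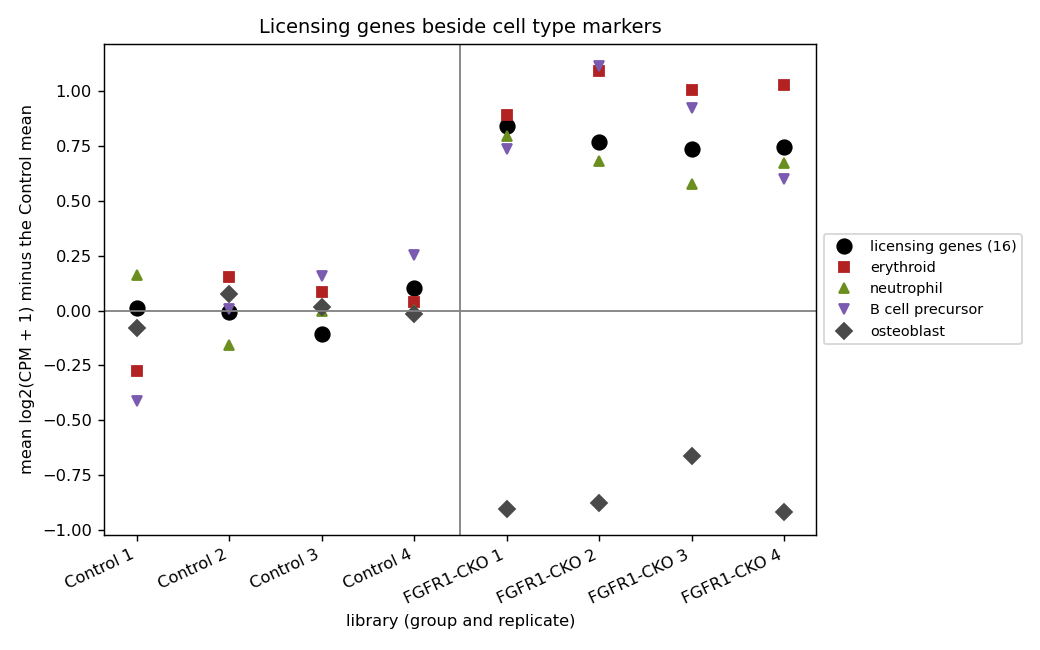
Licensing genes beside cell type markers in each library. The y axis is the mean log2(CPM + 1) of a list minus its Control mean, and symbols mark the 16 licensing genes and the listed erythroid, neutrophil, B cell precursor and osteoblast markers. Licensing genes and the erythroid, neutrophil and B cell precursor markers lie above 0.5 in all 4 FGFR1-CKO libraries, and osteoblast markers below -0.5.

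The submitters' own list of cell cycle and stress genes matched 124 listed genes. It holds 9 of the 16 licensing genes, namely Orc6, Cdc6, Mcm3, Mcm4, Mcm5, Mcm6, Mcm7, Mcm10 and Cdc45. The other 7, Orc1, Cdt1, Gmnn, Mcm2, Gins1, Gins2 and Gins3, do not appear in it although each rose. Mcm2, the remaining ring subunit, went from 96.5 ± 8.47 to 172 ± 6.58 CPM (mean ± SD over 4 libraries). Mcm7, which the submitters' list does hold, went from 96.2 ± 8.59 to 164 ± 6.56 CPM.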

How the data were processed

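Bulk RNA-seq libraries were made after RNase H removal of ribosomal RNA with random priming, per the labels' protocols. Per the submitters' processing notes the build was mm10 and the tools were DESeq2, edgeR, RSEM, featureCounts (Subread 2.0.1 is also named), STAR 2.7.9a and cutadapt, with no order given. The authors deposited CPM per library, a mean normalized signal over all 8 libraries, log2 fold changes with their standard errors, and p-values, per the file headers. The lowest mean of a listed gene was 5.00 CPM.

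Each library total that turned its CPM values into whole reads (100.0% within 0.001 reads) was recovered, for depth and for the size factors used in rescaling. The test was limma 3.58.1 in R 4.3.3 (eBayes with trend, two-sided) on log2(CPM + 1), with a pseudocount of 1, over all 1994 listed genes, Benjamini-Hochberg adjusted. A trial of the fit used simulated counts in which most genes did not differ. That trial does not cover genes selected for differing in the same libraries. Fold changes on this scale understate those of low genes. Ratios and shares were compared by exact permutation tests over libraries. Labels do not say that libraries are separate mice, so p-values measure the spread between libraries, which may be technical. Replicate numbers are accession order. The labels give no batch.

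Members and lists were chosen with earlier results of these data known. Named genes were every listed member, Fgfr1, up to 4 listed genes of each list by smallest adjusted p, and the 5 genes most like the members in deviations. Not all of those are reported here. Gene positions come from GENCODE M21 and promoters from RefSeq (GRCm38.p6). Alternatives were size-factor rescaling, a pseudocount of 0.5, a minimum mean of 10 CPM, no trend, and leaving out libraries.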

Additional observations from a re-analysis of the deposited data

Results flagged for a closer look

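Among 34 groups of 4 libraries examined (the 16 licensing genes and Fgfr1 in each genotype), 2 had a library far from the other 3, where chance gives about 1 in 20. Cdc6 in Control replicate 4 measured 26.5 CPM against 22.8 to 23.4 CPM in the other Controls, a gap of 0.841 of the group's range in log2(CPM + 1), beyond Dixon's 95% critical value for 4 samples. Mcm6 in FGFR1-CKO replicate 4 measured 167 CPM against 186 to 188 CPM in the others of its group, a gap of 0.887 of the range. Without Control replicate 4 the log2 fold change of Cdc6 was 1.09, and without FGFR1-CKO replicate 4 that of Mcm6 was 0.86.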

How the results depend on the processing

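Of the 16 licensing genes, 16 rose after a pseudocount of 0.5, without the trend, without any 1 library, and without both Control replicate 4 and FGFR1-CKO replicate 3. Over all 1994 listed genes 715 to 729 rose in these settings. The 16 were listed because they differed between these same libraries, so the steady count lends no support. After size-factor rescaling 15 of the 16 rose, with Gins3 at 0.45. With a minimum mean of 10 CPM the 14 members left all rose, beside 608 of the 1613 listed genes left. Gins1 and Gins3 were below that mean. No member changed sign. Over all listed genes rescaling gave 651 that rose and 1154 that fell, against 729 and 766. Fgfr1, by whose level the libraries were chosen, ran from -1.01 to -0.83. Leaving out 1 library moved Cdt1 minus Gmnn between -0.16 (exact permutation p = 0.0286, the smallest possible, without FGFR1-CKO replicate 2) and -0.096, the cause was not tested, and without both libraries it was -0.081 (exact permutation p = 0.300, with no less than 0.10 possible for 3 against 3). Mcm5 minus Mki67 ran from 0.016 to 0.12 and never passed. No paired analysis was possible because replicate numbers are accession order and pair no libraries. The count test of edgeR, planned in 2 forms, was not run, since the deposited values are CPM of selected genes. For Gins1, 55 to 107 reads per library limit the precision.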
